A study of Mus musculus with 6 samples.

Results

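The 7 genes described here are the Hes and Hey genes Hes1, Hes5, Hes6, Hey1, Hey2 and Heyl and the feedback gene Nrarp, all known as targets or relatives of targets of Notch signalling. They were taken from the arrays by the accession number printed for each probe: every non-control probe whose RefSeq accession belongs to one of these symbols was used. This gave 7 genes of the 20972 genes named through accessions, each with 1 probe and 1 spot, among 55681 non-control probes. Agilent 1-colour arrays were used on RNA from C57BL/6 tibial cartilage, with 3 mice labelled control and 3 mice labelled ADAM10 flox/flox-Col2a1-Cre (called mutants here). The mutants carry loxP-flanked alleles of Adam10, a membrane protease, and a Cre recombinase driven by the promoter of the cartilage collagen gene Col2a1, which is active mainly in chondrocytes. Their genotype is therefore aimed at the chondrocyte lineage, while the RNA came from the whole tissue piece. The labels name neither age nor sex, do not say which Adam10 or Cre alleles the control mice carried, and list no treatment.

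Notch receptors are single-pass proteins that are cut at the cell surface after a ligand on a neighbouring cell binds. ADAM10 makes the first cut of an activated receptor, gamma-secretase makes the next, and the freed intracellular domain joins the DNA-binding protein RBPJ and a Mastermind coactivator to switch on target genes. Hes1, Hes5, Hey1, Hey2 and Heyl are among the best known of these targets and encode basic helix-loop-helix repressors. Hes6 encodes a relative that counteracts Hes1, and Nrarp encodes a small ankyrin repeat protein that limits Notch signalling. In cartilage Notch is known to restrain early chondrocyte differentiation, and in blood vessels the Hey genes take part in arterial and mural cell identity.

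Promoter sequences from RefSeq, assembly GRCm38.p6, were matched for 4 of the 7 genes (Hes5, Hes6, Hey2 and Nrarp), with 2 start sites for Hes6. They are shown to compare which of these promoters carry the letters bound by RBPJ. The 250 bases before the start site are given 5′ to 3′ on the gene's strand, in lower case, with each match to TGGGAA, the core of the RBPJ site, or to its reverse complement TTCCCA in capitals. The Hes5 window is chr4:154960673-154960922, plus strand, the Hey2 window chr10:30842784-30843033, minus strand, the Nrarp window chr2:25180508-25180757, plus strand, and the Hes6 window, the first of the 2 by coordinate, chr1:91413223-91413472, minus strand.
Hes5: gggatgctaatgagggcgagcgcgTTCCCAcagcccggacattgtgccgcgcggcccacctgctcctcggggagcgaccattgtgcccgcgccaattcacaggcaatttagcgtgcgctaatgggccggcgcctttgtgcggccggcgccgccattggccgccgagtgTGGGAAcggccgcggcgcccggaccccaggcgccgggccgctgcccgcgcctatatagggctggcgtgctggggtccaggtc
Hey2: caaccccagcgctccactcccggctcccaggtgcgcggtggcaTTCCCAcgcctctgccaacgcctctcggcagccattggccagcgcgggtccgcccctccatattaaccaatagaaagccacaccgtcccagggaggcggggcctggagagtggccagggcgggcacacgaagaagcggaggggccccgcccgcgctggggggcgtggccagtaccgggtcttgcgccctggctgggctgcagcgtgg
Nrarp: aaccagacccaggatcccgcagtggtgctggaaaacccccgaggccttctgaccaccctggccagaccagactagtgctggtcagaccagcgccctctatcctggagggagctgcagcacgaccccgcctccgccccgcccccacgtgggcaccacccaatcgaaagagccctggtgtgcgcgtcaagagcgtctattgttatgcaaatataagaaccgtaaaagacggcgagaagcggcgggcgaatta
Hes6: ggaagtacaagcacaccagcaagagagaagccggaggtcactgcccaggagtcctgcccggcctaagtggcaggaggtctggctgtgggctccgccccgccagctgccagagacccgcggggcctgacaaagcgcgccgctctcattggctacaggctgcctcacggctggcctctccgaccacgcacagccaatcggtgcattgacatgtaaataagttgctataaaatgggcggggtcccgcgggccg

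The Hes5 window held 2 matches to TGGGAA, in opposite orientations, beginning 226 and 82 bases before the start. The Hey2 window held 1, beginning 207 bases before the start, and the Nrarp window and both Hes6 windows held 0. The Hes5 and Hey2 matches are all preceded by G on the strand they are read on, so they also fit GTGGGAA. Of 32851 RefSeq promoters, 21.6% held TGGGAA in the same 250 bases on either strand and 5.42% held GTGGGAA, which contains it. The E-box CACGTG, known as a target of Hey proteins, was found in the Nrarp window, 108 bases before the start, and in 6.02% of all promoters. The N-box CACNAG, known as a target of Hes proteins, was found in the Nrarp window and in the Hes6 window shown, and in 36.7% of all promoters. These are matches of letters in a short window, on both strands, and none of them was tested for binding here.

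All 6 arrays lay on 1 slide. Mutant 1 shared the first row with all 3 controls, and mutants 2 and 3 were in the other row. The 75th percentile of the processed signal lay between 510.3 and 631.0 intensity units, between 62.4% and 65.4% of spots passed the scanner's test for being well above background, and 0 spots reached saturation. Signals are given below as log2 of the processed signal minus log2 of that percentile on the same array, which allows arrays to be compared for 1 probe but not probes with each other. Most markers of the labelled tissue were strong, and all 16 listed chondrocyte markers were tested. Col2a1 was at 10.03 ± 0.07 in controls and 9.97 ± 0.12 in mutants (log2 signal, SD, n = 3 each). Sox6 of the same list was at -1.12 in controls. Genes of bone and blood were strong too, with Col1a2 at 10.01 and Hba-a2 at 8.73 in controls. Sox6, Col1a2 and Hba-a2 were named after their values were seen. Control 1 and mutant 3 had high Xist and low Ddx3y, a Y-linked gene, and the other 4 arrays the reverse. Each group thus mixed both patterns. The low values were less low on 2 arrays. Xist was -3.66 on mutant 1, against -7.23 on controls 2 and 3 and -7.325 on mutant 2. Ddx3y was -4.57 on mutant 3, against -7.34 on control 1. The cause of this was not tested. Mutant 2 stood apart from the other arrays. It had the lowest score for 11 of 16 marker lists, among them endothelial, mural, macrophage, osteoclast, muscle and fat cell markers, and the highest score for chondrocyte markers. Adam10, the targeted gene, read 1.61, 1.58 and 1.21 on the control arrays, and 0.15, -1.70 and 0.31 on the mutant arrays, so it was lower in every mutant and lowest in mutant 2.

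Hes5, Hey1 and Heyl were lower in all 3 mutants than in all 3 controls, by 1.52-fold, 2.46-fold and 1.98-fold. Hes1 and Nrarp had lower means in mutants with overlapping groups, Hes6 had nearly equal means, and Hey2 was on 0 of 6 arrays well above background. No gene of the 7 passed the limma threshold adjusted over all 25494 tested features, where 0 features passed (0%), 877 had an unadjusted p below 0.05 and 0.388 was the lowest adjusted value. At that unadjusted level, 3 of the 6 tested genes were lower and 0 higher, against 1.89% of all features lower and 1.55% higher. All mutants lay below all controls for 3 of the 6, against 3.75% of all features, and above them for 0 of the 6, against 5.19%. At an unadjusted limma p below 0.05, 4 of 11 osteoclast, 3 of 10 macrophage and 3 of 10 B lymphocyte markers were also lower. The sinusoidal endothelial list had 2 of 6, the endothelial list 0 of 20 and the chondrocyte list 0 of 16. The 6 tested genes were well above background on all 6 arrays, so the filter on dim probes did not select them through 1 group. Their median difference was -0.62, beside 0.04 over all features, of which 40.0% were below 0. Without mutant 2 the differences of Hes1, Hey1, Heyl and Nrarp were smaller in size, at -0.23, -0.86, -0.58 and -0.01. Those of Hes5 and Hes6 were then -0.68 and -0.04. The 7 genes were chosen for description with earlier results of these data known, so these counts describe them and are not independent evidence.

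**Figure D1:**
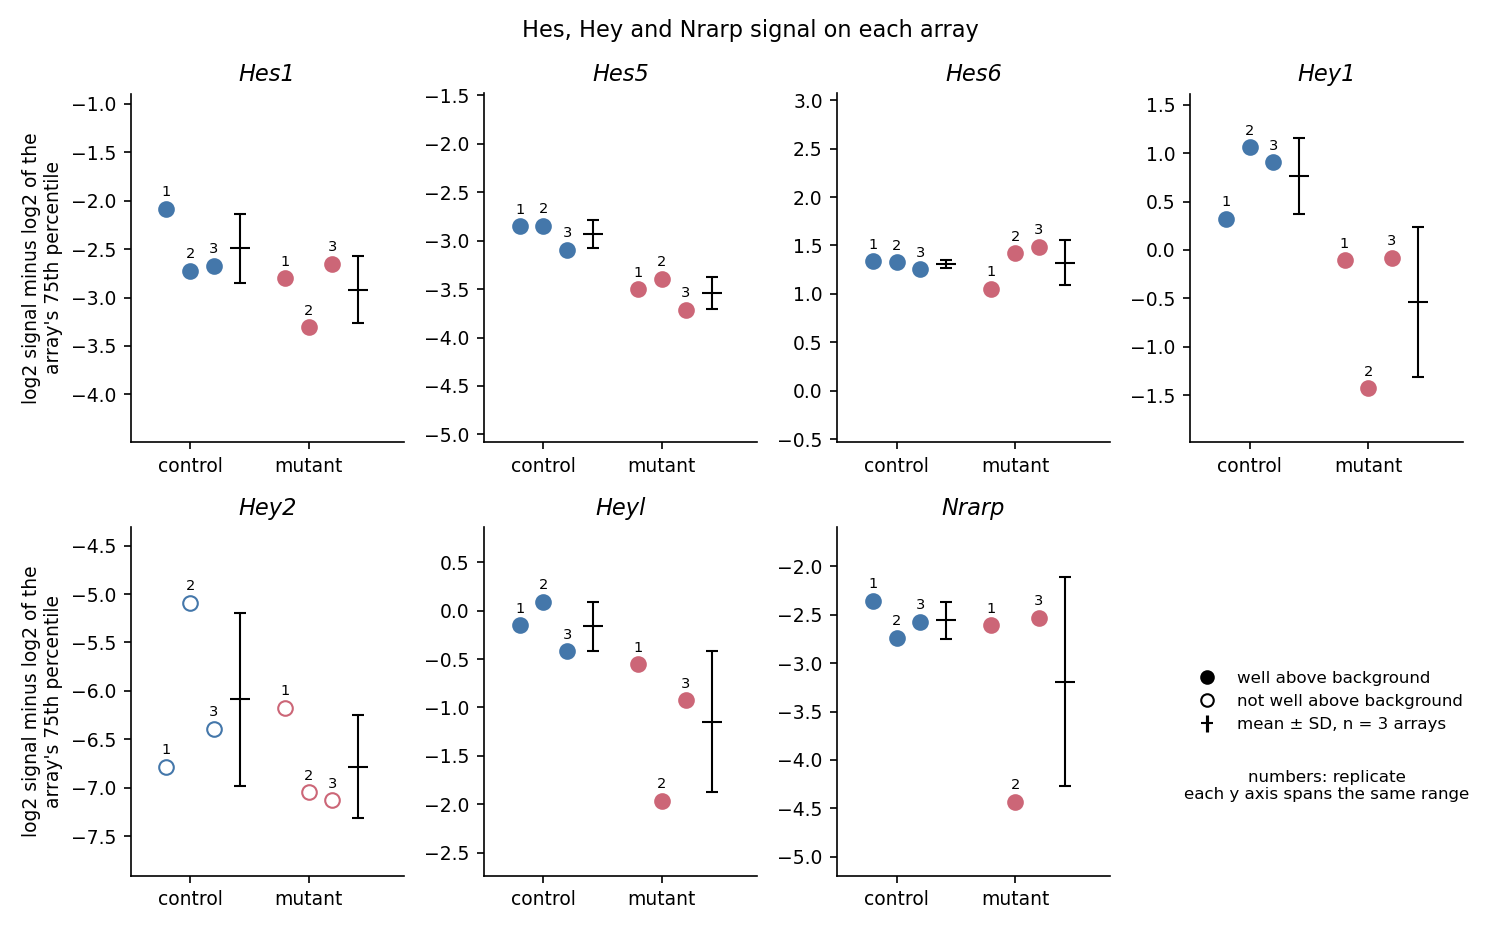
Log2 signal of each gene relative to the array's 75th percentile (vertical axes, all of equal span) on the 3 control and 3 mutant arrays, with the mean and SD beside each group. Open circles mark spots not well above background. The groups are apart for Hes5, Hey1 and Heyl, and for Nrarp only mutant 2, at -4.43, is apart from the rest.

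Hes1, a broadly expressed repressor and a classical target of Notch1, had log2 signals of -2.08, -2.73 and -2.67 on the control arrays, and -2.80, -3.30 and -2.65 on the mutant arrays (numbers 1 to 3 in order, here and below). Control 1 was highest and mutant 2 lowest, and the other 4 arrays lay close together between -2.80 and -2.65. The difference (mutant minus control) was -0.42 (SE 0.25, 95% interval -1.02 to 0.17; limma adjusted p = 0.987, exact permutation p = 0.3), and the groups overlapped. It was -0.22 without control 1, -0.23 without mutant 2 and -0.03 without both. The probe was dim, with a raw brightness of 3.07 to 4.62 times the local background.

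Hes5 encodes a repressor best known from neural progenitors, where it responds to Notch. It read -2.85, -2.85 and -3.09 on the control arrays, and -3.50, -3.39 and -3.72 on the mutant arrays. The groups did not overlap, the SDs were 0.14 and 0.16 (n = 3 each), and the lowest array was mutant 3, not mutant 2. The difference was -0.61 (SE 0.14, 95% interval -0.95 to -0.27; limma p = 0.00447, adjusted p = 0.987; exact permutation p = 0.1), or 1.52-fold lower. By the limma p it ranked 63 of 25494 features. Without mutant 2 the difference was -0.68, and over the 6 fits that leave out 1 array it ran from -0.69 to -0.52, each at an unadjusted p below 0.05. With 3 arrays in each group the two-sided exact test cannot go below 0.1. The signal was low, at 38.8 to 82.1 intensity units and 2.69 to 3.56 times the local background in raw brightness. In that ratio the groups overlapped, at 3.56, 3.26 and 2.83 in controls and 3.13, 3.35 and 2.69 in mutants. The processed signal, after background subtraction, ran from 59.9 to 82.1 intensity units in controls and from 38.8 to 56.9 in mutants. With normexp background correction the difference was -0.29 after percentile scaling, and -0.25 after quantile scaling, where it no longer passed the unadjusted level.

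Hes6, whose protein opposes Hes1 and is known for a role in neural and muscle differentiation, read 1.34, 1.33 and 1.26 in controls, and 1.05, 1.42 and 1.48 in mutants. The mutants spanned the narrow range of the controls, with mutant 1 below it and mutants 2 and 3 above it. The difference of 0.01 (SE 0.15, 95% interval -0.35 to 0.37; limma adjusted p = 0.995, exact permutation p = 1) changed sign with quantile scaling, to -0.01, and in 3 of the 6 fits that leave out 1 array. The probe was bright, at 30.2 to 45.5 times the local background.

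Hey1, a repressor expressed in endothelium and in skeletal cells and a direct target of the Notch intracellular domain, had the largest difference of the 6 tested genes. Its log2 signals were 0.32, 1.06 and 0.91 on the control arrays, and -0.10, -1.43 and -0.08 on the mutant arrays. In processed signal these were 741, 1159 and 958 intensity units against 587, 222.0 and 483. Every mutant was below every control, with mutant 2 far below the other mutants and control 1 closest to the mutants. The difference was -1.30 (SE 0.41, 95% interval -2.28 to -0.32; limma p = 0.0170, adjusted p = 0.987; exact permutation p = 0.1), or 2.46-fold lower. Of all features, 0.867% had a lower difference. It was -0.86 without mutant 2 and -1.08 without both control 1 and mutant 2, past the unadjusted level both times. It no longer passed that level without control 2, at -1.15, or within the first slide row, at -0.87, where mutant 1 is the only mutant and is assumed to vary like the controls.

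Heyl, known from vascular smooth muscle, pericytes and other mural cells, where it lies downstream of Notch3, read -0.15, 0.09 and -0.42 on the control arrays. The mutant arrays read -0.55, -1.96 and -0.92. Control 3 and mutant 1 lay close to each other, and mutant 2 was again lowest. The difference was -0.99 (SE 0.37, 95% interval -1.87 to -0.10; limma p = 0.0337, adjusted p = 0.987; exact permutation p = 0.1), or 1.98-fold lower. Without mutant 2 it was -0.58 and still passed the unadjusted level. It no longer did without control 1, at -0.98, without control 2, at -0.86, without both control 1 and mutant 2, at -0.57, within the first slide row, at -0.39, or on the 4 arrays with Y-linked signal, at -1.09. On those 4 arrays Hes5 and Hey1 still passed it, at -0.48 and -1.75.

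Hey2, known from the heart and from arterial endothelium, gave processed signals of 5.37, 16.4 and 6.08 intensity units on the control arrays, and 8.75, 4.53 and 3.65 on the mutant arrays. On 0 of 6 arrays was its spot well above background, and its raw brightness was 1.49 to 1.57 times the local background. It was therefore not tested, and no fold is given.

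Nrarp, a target and inhibitor of the Notch transcription complex, read -2.36, -2.74 and -2.57 on the control arrays, and -2.61, -4.43 and -2.53 on the mutant arrays. Mutants 1 and 3 lay inside the range of the controls, and mutant 2 lay far below all other arrays. In processed signal mutant 2 had 27.7 intensity units, against 83.2 to 115.7 on the other 5 arrays. The difference of -0.63 (SE 0.51, 95% interval -1.86 to 0.59; limma adjusted p = 0.987, exact permutation p = 0.5) was -0.01 without mutant 2.

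**Figure D2:**
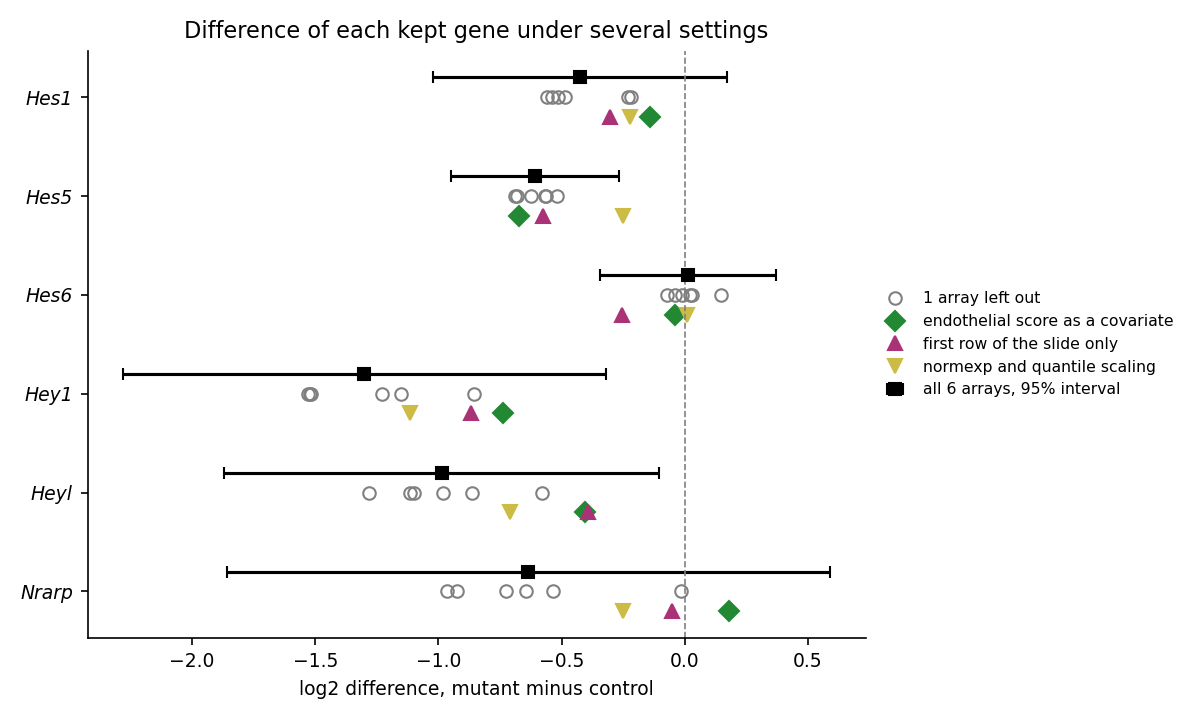
Log2 difference, mutant minus control (horizontal axis), of the 6 tested genes: squares with 95% limma intervals for all 6 arrays, circles for fits that leave out 1 array, and coloured marks for 3 other settings. The intervals of Hes5, Hey1 and Heyl lie below 0, and the Nrarp circle nearest 0, at -0.01, is the fit without mutant 2.

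Whether the genes differed from each other in their change was tested on the log2 ratio of each pair within the same array, for all 15 pairs of the 6 tested genes. The log2 ratio of Hes6 to Hey1 averaged 0.54 ± 0.41 for controls and 1.86 ± 0.88 for mutants (SD, n = 3 each), a difference of 1.31. That of Hes5 to Hes6 averaged -4.24 ± 0.10 for controls and -4.86 ± 0.32 for mutants, a difference of -0.62. In these 2 pairs the groups did not overlap (exact permutation p = 0.1 each, two-sided, and 0.5 adjusted over the 15 pairs), and in the other 13 they did. Between Hes5 and Hey1 the changes differed by 0.69 (exact permutation p = 0.3), with overlapping groups. Hey1 and Heyl, close relatives, differed in their change by -0.31 (exact permutation p = 0.3). No pair could reach 0.05 with 3 arrays against 3.

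Markers of other cell types moved with several of these genes. In bulk tissue, fewer cells of a type and less RNA per cell cannot be told apart. To score a marker list on an array, each gene was centred on its own 6-array mean and the centred log2 signals were averaged. The score of 20 endothelial markers was 0.38, 0.41 and 0.05 on the control arrays, and 0.10, -1.06 and 0.13 on the mutant arrays, with 19 of 20 genes below 0 in the difference and 0 at an unadjusted limma p below 0.05. Pecam1, an adhesion protein of endothelium, differed by -0.48 (SE 0.26), and Cdh5, the cadherin of endothelial junctions, by -0.94 (SE 0.43). The VEGF receptor Kdr, which chondrocytes can also express, differed by 0.06 (SE 0.15). The mural score was 0.75, -0.13 and -0.37 in controls and 0.38, -0.94 and 0.30 in mutants, with 6 of 11 genes below 0. Its first 3 listed genes went both ways: Rgs5 differed by -0.37 (SE 0.50), Pdgfrb by -0.43 (SE 0.21) and Cspg4 by 0.24 (SE 0.18). The other listed mural genes, named after their values were seen, went both ways as well. Acta2 differed by 0.33 (SE 0.25), Tagln by 0.20 (SE 0.24), Cnn1 by 0.11 (SE 0.43) and Myh11 by 0.07 (SE 0.56). Kcnj8 differed by -0.80 (SE 0.63), Notch3 by -0.49 (SE 0.47), Abcc9 by -0.45 (SE 0.69) and Des by -0.28 (SE 1.26).

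Mutant 2 had the lowest endothelial and mural scores as well as the lowest Hes1, Hey1, Heyl and Nrarp signals. The highest signals of these 4 genes were on control 1 or control 2, which also had the 2 highest endothelial scores. Hes5 followed this order in part: its 2 highest arrays were also controls 1 and 2, while its lowest was mutant 3, with an endothelial score above that of control 3. Adding the endothelial score to the fit gave a Hes5 difference of -0.67, past the unadjusted level. Under the same covariate the Hey1 difference was -0.74 and that of Heyl -0.40, neither past that level, and those of Hes1 and Nrarp were -0.14 and 0.18. The endothelial score was -1.06 on mutant 2 and between 0.05 and 0.41 on the other arrays, so this covariate mainly sets mutant 2 apart. Mutant 2 was also lowest for macrophage, osteoclast, osteoblast, muscle and fat cell markers, and this fit cannot separate endothelial markers from those. The part of the endothelial and mural cells in the Hes, Hey and Nrarp differences was not tested beyond these values.

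Markers of marrow and blood followed another order. Neutrophil markers scored 1.88 on control 1, 1.05 on control 2 and between -1.32 and -0.27 on the other 4 arrays, and erythroid and B lymphocyte scores were likewise high on controls 1 and 2. With the mean of those 3 scores as a covariate the differences were -0.52 for Hes5, -1.47 for Hey1 and -0.88 for Heyl, and Heyl no longer passed the unadjusted level. Macrophage scores ran from 0.29 to 0.71 in controls and from -1.41 to -0.02 in mutants, and osteoclast scores from 0.32 to 0.75 and from -1.75 to 0.09, with mutant 2 lowest in both. Of the tested genes of these lists, 9 of 10 and 11 of 11 were below 0. Their part in the Hey1 and Heyl differences was not tested. Skeletal muscle markers had scores of 2.46, -0.89 and -0.98 in controls and 1.34, -2.53 and 0.60 in mutants. Adipocyte scores ran from -1.93 on mutant 2 to 0.81 on mutant 3. Arterial endothelial scores ran from -0.69 on mutant 2 to 0.40 on control 1. Sinusoidal endothelial scores ran from 0.0969 to 0.701 in controls and from -1.365 on mutant 2 to 0.0958 in mutants. These groups were narrowly apart, with 6 of 6 tested genes below 0. The part of the sinusoidal cells in the Hey1 and Heyl differences was not tested. Osteoblast scores ran from -1.10 to 0.50 and hypertrophic chondrocyte scores from -0.38 to 0.31, with mutant 2 lowest in both. Neural and glial scores lay between -0.31 and 0.28 and proliferation scores between -0.11 and 0.30. Chondrocyte scores were -0.33, -0.05 and 0.02 in controls and -0.01, 0.38 and -0.01 in mutants. Of these 16 genes, 2 were below 0 in the difference (Col2a1 and Sox5), the median difference was 0.28, and 0 had an unadjusted limma p below 0.05. Acan, the main cartilage proteoglycan, differed by 0.36 (SE 0.20). The part of this shift in the Hes and Hey differences was not tested.

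**Figure D3:**
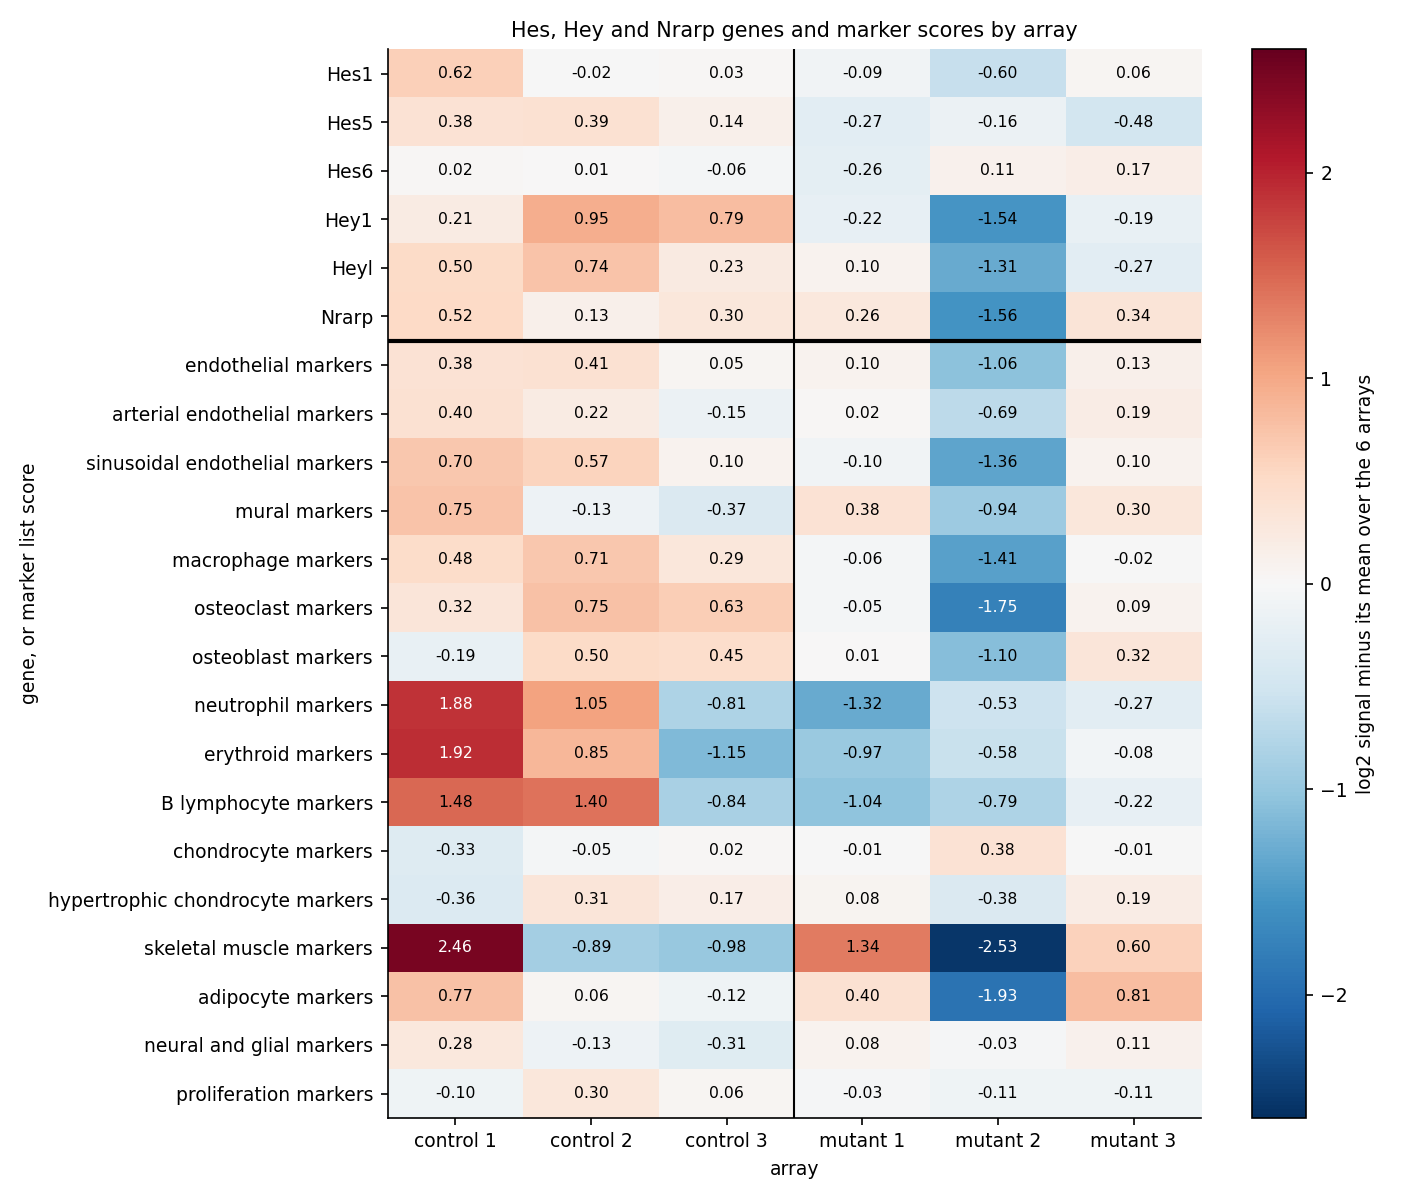
Centred log2 signal (colour and printed values) of the 6 tested genes above the thick line and scores of 16 marker lists below it, for the 3 control and 3 mutant arrays. Mutant 2 is at -1.54 for Hey1, -1.31 for Heyl and -1.56 for Nrarp and at -1.06 for endothelial markers, while Hes5 is lowest on mutant 3, at -0.48.

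The rest of the Notch pathway was described with a list of 72 genes by role, of which 67 were tested. Of the others, Il2ra, Hes3 and Helt had only probes that failed the filter on dim probes, and the rest were not analysed here. Among the 67 genes, 1 was lower and 0 higher at an unadjusted limma p below 0.05, against 1.89% and 1.55% of all features, and 0 passed the adjusted threshold. The gene lower was Adam10 itself, at -1.88 (SE 0.53, 95% interval -3.16 to -0.60; limma adjusted p = 0.987). The labels do not say which exons are removed, so this probe may lie outside the deleted stretch. The median difference was 0.07, with 27 genes (40.3%) below 0, beside 40.0% of all features. In 4 genes all mutants lay below all controls (Adam10, Mfng, Dtx4 and Nfkb2) and in 1, Cdkn1a, above them, against 3.75% and 5.19% of all features.

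Of the receptors, Notch1 differed by -0.08 (SE 0.25) and Notch2 by 0.00 (SE 0.11, 95% interval -0.27 to 0.27). Notch3, the receptor of mural cells, differed by -0.49 (SE 0.47) and Notch4, an endothelial receptor, by -0.48 (SE 0.31), both with mutant 2 lowest of the 6 arrays. Of the 8 ligands and ligand-like genes, Jag1, Jag2, Dll1 and Dll4 were below 0, each lowest on mutant 2, and Dner had the smallest p, at 0.52 (SE 0.32). Adam17, the related protease, differed by -0.24 (SE 0.14). The 5 gamma-secretase genes tested lay between -0.18 and 0.09, led by Psen2.

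Among the enzymes that add sugars to Notch, Poglut1, an O-glucosyltransferase, had the smallest p, at 0.38 (SE 0.18). The fringe Mfng, which modifies Notch in the Golgi, differed by -0.89 (SE 0.43), with mutant 2 lowest. Rbpj differed by -0.05 (SE 0.15), and of the 7 genes of the nuclear complex the coactivator Maml2 had the smallest p, at 0.35 (SE 0.18). Of 10 corepressors, which Hes proteins recruit or which act with RBPJ, Tle4 had the smallest p, at -0.46 (SE 0.21). Of 11 genes of receptor turnover, Dtx4, a ubiquitin ligase of the Deltex family, differed by -0.78 (SE 0.42). Its signals were 0.50, 0.29 and 0.13 in controls and 0.01, -1.49 and 0.06 in mutants, apart from each other but with mutant 2 far below.

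Of 11 other reported targets of Notch, 10 were above 0 and Nfkb2, at -0.19 (SE 0.11), was below it, with a median of 0.10. Cdkn1a, the cell cycle inhibitor p21, had the smallest p of them, at 0.32 (SE 0.14, 95% interval -0.01 to 0.64), with all mutants above all controls. Of the other genes of the Hes and Hey superfamily, Hes2 differed by 0.04 (SE 0.19), Hes7 by 0.00 (SE 0.11) and Bhlhe40 by -0.04 (SE 0.13). Bhlhe41, a clock-linked repressor, differed by 0.36 (SE 0.18). The 4 had a median of 0.02, beside -0.62 for the 6 Hes, Hey and Nrarp genes. The difference between the lists was not tested.

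**Figure D4:**
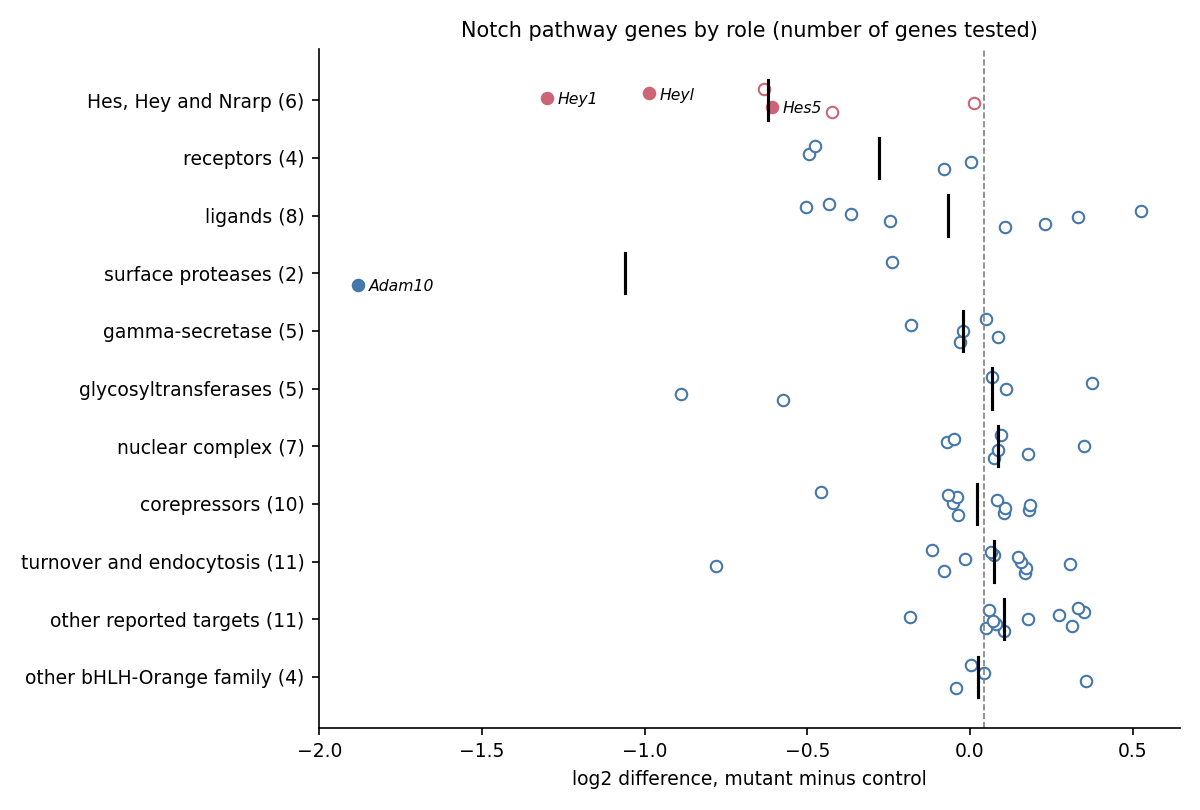
Log2 difference, mutant minus control (horizontal axis), of each tested Notch pathway gene by role, with filled circles at an unadjusted limma p below 0.05, a bar at each group's median and a dashed line at the median of all features (0.04). Hey1, Heyl, Hes5 and Adam10 are the filled circles, and most other roles have medians between -0.07 and 0.10.

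The genes with the most similar array patterns were found among 13893 named genes well above background on all 6 arrays, by the root mean square distance between centred log2 signals over the 6 arrays. For Hey1 they were Rasgrp2 (0.157), Pmaip1 (0.162) and Fcgr1 (0.165), against a spread of Hey1 itself of 0.820 on the same scale. For Heyl, with a spread of 0.665, they were Tmem204 (0.0948), Il2rg (0.108) and Kcnn4 (0.119). Among the nearest to Hes5, with a spread of 0.328, were Inka1 (0.113) and Gclm (0.116). Those of Nrarp, with a spread of 0.706, were Lurap1l (0.118), Ccdc9b (0.135) and Fgf7 (0.153), each lowest on mutant 2. Spata31d1b (0.0641), Bhmt and Mcrip2 (0.0887 each) were nearest to Hes1, whose spread was 0.356. Tonsl (0.0361), Mrpl55 (0.0392) and Mroh5 (0.0481) were nearest to Hes6, whose spread was 0.137. These distances are a description over 6 arrays that share the same slide, with no test.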

How the data were processed

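Labelled cRNA was made from 100 ng of RNA with Cy3, per the labels' protocols; the label field names Cy5, and the file headers record 1 scanned channel. Per the submitters' processing notes, Agilent Feature Extraction 10.7.1.1 was used. The deposited intensity values are a background-subtracted processed signal and raw spot and background medians, with no scaling across arrays. In the value table deposited by the authors each number is a linear ratio to the array's 75th percentile, as read from its values; how it was made is not given in the sources used here.

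Accessions were matched, without versions, to RefSeq symbols of GRCm38.p6; the arrays refer to mm9, so no array coordinates are given. Control and outlier spots were left out, log2 processed signal was centred on the 75th percentile of non-control spots, and probes well above background on at least 3 of 6 arrays were kept. Each gene was represented by its brightest kept probe, giving 25494 features. The groups were compared by limma (version 3.58.1, R 4.3.3; two-sided, 4 residual and 2.42 prior degrees of freedom) with Benjamini-Hochberg adjustment over all features; the code was tested on simulated data. A fit of all 35228 kept probes, without choosing a probe per gene, was also made. The number of arrays limits the precision.

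The 7 genes, the pathway and marker lists and the tests were chosen with earlier results of these data known. The genes named are the 7, Adam10, Notch1 to Notch4, Rbpj, per pathway role those with an unadjusted p below 0.05 or the smallest p, up to 3 markers per list taken in listed order, and the 3 nearest in pattern, of which not all are reported here; Col2a1 and Kdr fall under the marker rule, and Jag1, Jag2, Dll1, Dll4, Adam17, Mfng, Nfkb2, Hes2, Hes7 and Bhlhe40 were named after their values were seen. Normexp used the spot median, since the files used here hold no spot mean. Same-numbered control and mutant arrays deviated from their group means with correlations of 0.21, 0.06 and -0.16. These 3 values cannot settle whether the numbers pair the mice. The main fit left the mice unpaired, and a fit with the replicate number as a block is among the alternatives. The labels state separate mice per genotype.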

Additional observations from a re-analysis of the deposited data

How the results depend on the processing

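Hes5, Hey1 and Heyl kept a difference below 0 under all 22 alternatives, from -0.69 to -0.25, -1.75 to -0.74 and -1.28 to -0.39. They had an unadjusted limma p below 0.05 under 21, 18 and 13 of them. Not all 22 are independent checks. Each gene has 1 probe, so the changes of filter and the mean of kept probes could not alter these differences. Nor could another variance setting of limma or the replicate block, which changed only the SE and p. The row block repeats the differences of the first row. No adjusted p of a Hes, Hey or Nrarp gene passed in any alternative; they ran from 0.182 to 1. The sign of Hes6 turned in 10, to -0.0095 with quantile scaling (also in the fit of all probes), -0.16 with array weights, -0.25 on the first slide row or with the row as a block, -0.055 on arrays with Y-linked signal, -0.040 with the endothelial covariate, -0.022 without both control 1 and mutant 2 (a setting added after seeing the data), and from -0.070 to 0.15 with single arrays left out, among them -0.013 without control 3, -0.038 without mutant 2 and -0.070 without mutant 3 (also in the fit of all probes). Nrarp turned to 0.18 with the endothelial covariate and 0.087 without both arrays. Lower genes at an unadjusted p numbered 1 of 6 on the first row, with the row block or with the endothelial covariate, and 1 to 3 with single arrays left out (1 without control 2), as in the fit of all probes. Across all features 877 had an unadjusted p below 0.05, with 1362 without a filter, 3985 with array weights, 479 with the row block, 1335 on arrays with Y-linked signal, 1906 without both arrays, and 506 to 1151 with single arrays left out. Array weights called 4 features at the adjusted threshold, all other alternatives 0. Pairs of genes with groups apart numbered 5 with normexp and percentile scaling and 2 to 7 with single arrays left out, where fewer arrays make separation easier. With the replicate block 737 features and 2 of the 6 genes had an unadjusted p below 0.05; the Heyl difference of -0.99 no longer did, and no other gene of the 7 changed its side of 0.05. For the other changes the cause was not tested. Hes1, Hes5 and Nrarp were under 5 times the local background in raw brightness, which limits how well their fold is known.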
